A study of Mus musculus with 6 samples.

Results

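The heavy chain V genes other than IGHV1-72 were examined in single lymph node B cells from 3 wild-type (WT1 to WT3) and 3 Pik3cg knockout mice (KO1 to KO3). IGHV1-72 is the segment best known from mouse responses to the hapten NP, so leaving it out describes the rest of the repertoire. All 6 mice had received NP-Ova in alum 3 times, and draining nodes were taken at day 34. The knockout was labelled only as Pik3cg KO, and the strain, age, sex and deleted cell types are not given in the sources used here. Per the labels' protocols the pool was 70% B cells enriched by a negative selection that also removed IgD-positive cells, and 30% unselected cells, so the proportion of IgM/IgD to switched cells was set in part by that step. A cell was a member if its barcode carried a single hashtag and if its productive heavy chain contig, the one with the most unique molecular identifiers (UMIs) in that barcode and lane, used another V gene. This gave 2564 of the 2756 single-hashtag cells with a heavy chain, with 89 V genes of 14 families. The 192 cells left out used IGHV1-72.

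A heavy chain variable region is joined in a developing B cell from a V, a D and a J segment, and the junction forms CDR3, the most variable loop of the binding site. Naive B cells carry this region as IgM and IgD. After antigen contact the region can be mutated in germinal centres, and IgM and IgD can be exchanged for IgG, IgA or IgE. Descendants of one cell share V, J and a related CDR3, so a clone was counted once per class: cells of one mouse with the same V gene, J gene and CDR3 nucleotides. The 2564 cells formed 2425 clones, 2353 of which had 1 cell. Constant genes were IGHD in 1360 cells, IGHM in 620, IGHG1 in 364, IGHG2C in 93, IGHG2B in 84, IGHG3 in 25, IGHA in 3 and IGHE in 1, and 14 cells had none called.

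There were 1974 IgM/IgD clones: WT1 had 280, WT2 324, WT3 442, KO1 341, KO2 384 and KO3 203. Switched clones were fewer, 443 in all: WT1 had 74, WT2 15, WT3 43, KO1 65, KO2 151 and KO3 95. WT2, with 15 switched clones, therefore gave the least precise shares. Contigs were shallow: the median heavy chain had 2 UMIs (range 1 to 1689), and 35.5% had 1. The summed levels of the B cell markers Cd79a, Cd79b, Ms4a1 and Cd74 lay between 10191 and 16598 CPM (counts scaled to a fixed total per group) in every mouse and class. T cell markers summed to at most 58.2 CPM, myeloid markers to at most 45.8 CPM and NK cell markers to at most 6.36 CPM. The 7 germinal centre markers summed to 1433 ± 176 CPM in switched cells and 170 ± 67.7 CPM in IgM/IgD cells (SD, n = 6 mice), and the 5 follicular B cell markers to 207 ± 46.5 and 1077 ± 149 CPM. The 6 markers of antibody-secreting cells summed to 6038 ± 5731 CPM in switched and 547 ± 245 CPM in IgM/IgD cells (SD, n = 6). In switched cells their sum ran from 1732 CPM in WT2 to 16817 CPM in WT3. It was above the germinal centre sum in each of the 6 mice, in IgM/IgD cells as in switched cells. The lists hold different genes, so their sums do not rank cell states.

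Some sequences crossed the hashtags. Of the clones, 5 had the same V gene, J gene and CDR3 nucleotides in a pair of mice, and 3 of these 5 were mutated IgG sequences. One was IGHV8-8 with 15 to 17 mismatches to germline in 3 IGHG2C cells of WT1 and 17 in 1 IGHG2C cell of KO2. Another was IGHV1-81 with 5 mismatches and IGKV17-127 in 1 IGHG1 cell each of WT1 and KO3. Contigs of the lanes shared 78 barcodes, of 6828 in lane 1 and 7268 in lane 2. Whether a hashtag named the wrong mouse in these cells was not tested. Without these 5 sequences the differences between classes in CDR3 length, V region mismatches, lambda share and V gene concentration kept their direction.

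The sequences on which the results turn are CDR3s of the most expanded lineages. A lineage here joins the cells of one mouse, V gene, J gene and CDR3 length whose CDR3 nucleotides were linked at 85% identity. Switched IGHV8-8 cells of WT1 fell into 7 lineages, and a CDR3 of each of the 5 larger ones is shown, because they differ from one another although they share V gene, mouse and mostly isotype. For A, B and C it is the commonest, in 20 of 23, 3 of 15 and 3 of 8 cells; in D 3 CDR3s were equally common, and in E each was seen in 1 cell. Each runs 5′ to 3′, and the capitals mark the codons of the conserved cysteine and tryptophan that bound the loop.
Lineage A, IGHJ1: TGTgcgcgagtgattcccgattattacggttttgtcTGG
Lineage B, IGHJ1: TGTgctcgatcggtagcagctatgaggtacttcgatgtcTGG
Lineage C, IGHJ4: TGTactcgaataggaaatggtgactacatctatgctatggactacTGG
Lineage D, IGHJ1: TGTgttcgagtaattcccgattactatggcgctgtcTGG
Lineage E, IGHJ3: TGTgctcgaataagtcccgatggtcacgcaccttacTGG

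Outside WT1 the lineages with at least 9 cells came from the KO mice, and their commonest CDR3 is shown for comparison, with the same codons in capitals. In KO2 the pair that used IGHV9-1 had unrelated CDR3s of different length.
KO1, IGHV1-76 with IGHJ3: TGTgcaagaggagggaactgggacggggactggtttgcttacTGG
KO2, IGHV9-1 with IGHJ3: TGTgtctatggtaactggtttgcttatTGG
KO2, IGHV9-1 with IGHJ2: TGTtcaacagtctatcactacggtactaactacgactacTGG
KO2, IGHV1-19 with IGHJ3: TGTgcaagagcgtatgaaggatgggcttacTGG
KO3, IGHV1-62-2 with IGHJ3: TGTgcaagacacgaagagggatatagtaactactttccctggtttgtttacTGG
KO2, IGHV1-85 with IGHJ3: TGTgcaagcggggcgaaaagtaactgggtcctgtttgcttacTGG

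The unswitched repertoire was broad in all 6 mice. IgM/IgD clones used 88 of the 89 V genes, and 18 genes sufficed for 50% of the clones. The IGHV1 family, the largest of the mouse locus, supplied 54.4 ± 2.99% of the IgM/IgD clones of a mouse (SD, n = 6). IGHV5 followed with 10.8 ± 1.68%, IGHV2 with 7.85 ± 0.425% and IGHV8 with 7.53 ± 1.37%. IGHV9 made up 4.21 ± 1.02%, IGHV6 4.17 ± 2.12%, IGHV14 4.0 ± 1.74%, IGHV10 3.26 ± 0.839% and IGHV7 2.03 ± 1.26%. IGHV4 and IGHV13, each with 1 gene here, made up 0.717 ± 0.506% and 0.568 ± 0.454%. IGHV3, IGHV11 and IGHV15 had fewer than 10 clones over both classes and were only counted.

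Switched clones used 66 of the 89 V genes, 13 of which sufficed for 50% of the clones, and their family shares scattered widely from mouse to mouse. These shares rest on 15 to 151 clones per mouse, against 203 to 442 for IgM/IgD, so they are less precise. IGHV1 had a mean of 58.0 ± 14.0% in switched clones (SD, n = 6), from 36.5% in WT1 to 80.0% in KO1. The family that was lower in all 6 mice was IGHV2. Its share went from 7.14% of IgM/IgD to 4.05% of switched clones in WT1, from 8.02% to 6.67% in WT2 and from 8.37% to 0% in WT3. In KO1 it went from 7.62% to 1.54%, in KO2 from 8.07% to 4.64% and in KO3 from 7.88% to 6.32%. The mean difference was -3.98 percentage points (exact sign-flip permutation test over 6 mice, two-sided, p = 0.03125, the smallest it can give). Adjusted over the 11 families with at least 10 clones, p was 0.344, and no family passed the threshold. A single family at the smallest possible p cannot pass that adjustment, so it could not decide on IGHV2 alone. The IGHV2 difference was -1.69 points among heavy chains with at least 3 UMIs (exact permutation test, adjusted p = 1) and -2.14 points in lane 2 alone.

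**Figure D1:**
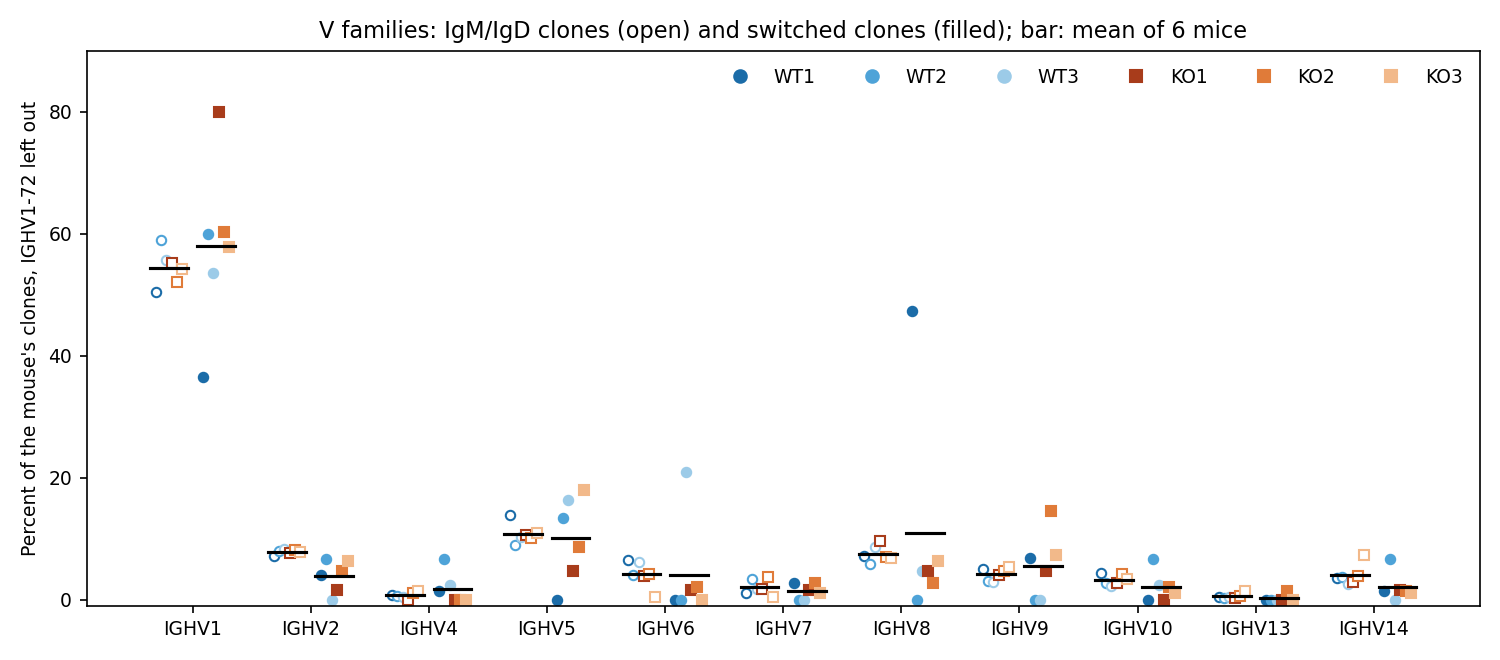
Percent of each mouse's clones (y axis) in each V family (x axis), for IgM/IgD clones (open symbols) and switched clones (filled symbols). Circles are WT mice, squares KO mice, and bars the mean of 6 mice. The IgM/IgD shares lie close together, while switched shares, which rest on fewer clones, spread, up to 47.3% for IGHV8 in WT1.

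For IGHV8, IGHV6 and IGHV9 a single mouse stood above the other 5. IGHV8 made up 47.3% of the switched clones of WT1 and at most 6.32% of those of any other mouse. IGHV6 reached 20.9% in WT3 against at most 1.99% elsewhere, and IGHV9 14.6% in KO2 against at most 7.37%. IGHV5, at 10.8 ± 1.68% in IgM/IgD clones, had no switched clone among the 74 of WT1 but supplied 17.9% of those of KO3 and 16.3% of those of WT3. Adjusted p over the 11 families (exact sign-flip permutation test) was 0.894 to 1 for the families other than IGHV2.

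Single V genes were tested with edgeR's quasi-likelihood test on numbers of clones, with the mouse as a block. Of 61 member genes tested between switched and IgM/IgD clones, 0 passed a Benjamini-Hochberg adjusted p of 0.05, and 5 had an unadjusted p under 0.05. DESeq2 also called 0, with 1 at an unadjusted p under 0.05. Over all 62 genes of the fit percent called was 1.61%, which is the 1 gene left out of this description. The median log2 fold change of the 61 members was -0.40, with 23 higher and 38 lower in switched clones.

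Of the genes nearest to the threshold, 3 were rare or absent among switched clones. IGHV14-4 had 18 IgM/IgD clones, 2 to 5 in each of the 6 mice, and no switched clone in any. IGHV5-16 also had 18, from 5 of 6 mice, and none switched. Against a floor of 3 clones over the switched group, each was at least 1.35-fold lower there (edgeR quasi-likelihood test, adjusted p = 0.176 for both). IGHV1-75 had 57 IgM/IgD clones, 1.43% to 3.45% of those of each mouse, and 4 switched clones, all in KO2. Its log2 fold change was -2.06 ± 0.87 (SE, edgeR quasi-likelihood test, adjusted p = 0.294). It was called without KO2 (edgeR, adjusted p = 0.0451) and in lane 2 alone (adjusted p = 0.00889). In both settings no switched IGHV1-75 clone was left, since all 4 were in lane 1 of KO2, so no fold is given. IGHV1-12 went the other way, with 16 IgM/IgD and 14 switched clones (log2 fold change 1.67 ± 0.82 SE, adjusted p = 0.436), and 11 of those 14 were in WT1 and KO1. Those 11 were CDR3 variants of a few groups of related cells. In WT1 these were 2 CDR3s in 6 cells and 5 in 5 cells, and in KO1 4 CDR3s in 5 cells.

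IGHV8-8 (ENSMUSG00000104452.1, chr12:115294062-115294504 of GRCm38, minus strand) had the most clones of the member V genes in both classes, pooled over the mice. Among switched clones it was the leading member gene in WT1 alone. Among IgM/IgD clones its share was steady: WT1 had 5.36%, WT2 4.01%, WT3 5.66%, KO1 5.87%, KO2 3.91% and KO3 4.43%. Switched clones differed: the share was 47.3% in WT1, 0% in WT2, 2.33% in WT3, 4.62% in KO1, 2.65% in KO2 and 2.11% in KO3. Only WT1 lay above its own IgM/IgD share. The other genes of the 12 with the most clones were IGHV1-81, IGHV5-17, IGHV1-80, IGHV1-26, IGHV2-2, IGHV6-3, IGHV9-3, IGHV1-76, IGHV1-64, IGHV1-75 and IGHV1-9. Together the 12 held 36.5% of IgM/IgD and 41.5% of switched clones.

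IGHV1-81 was the second, with 4.57 ± 1.52% of IgM/IgD clones and 3.82 ± 1.58% of switched clones (SD, n = 6), and it was present in both classes of every mouse. IGHV2-2 was the steadiest, at 2.71% to 3.21% of the IgM/IgD clones of each mouse. Among switched clones, 3 further genes were raised in one or a few mice. IGHV6-3 reached 18.6% in WT3 and was at most 1.99% in the other mice. IGHV1-76 reached 18.5% in KO1 and at most 4.65% elsewhere. IGHV5-17 made up 11.6% in WT3 and 9.47% in KO3, and had no switched clone in WT1 or WT2. These shares count CDR3 variants of a lineage as separate clones. With CDR3s linked, IGHV6-3 was 4 of 31 switched clones in WT3 and IGHV1-76 was 3 of 48 in KO1. The 5 switched IGHV5-17 clones of WT3 were CDR3s of a single lineage of 6 cells.

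**Figure D2:**
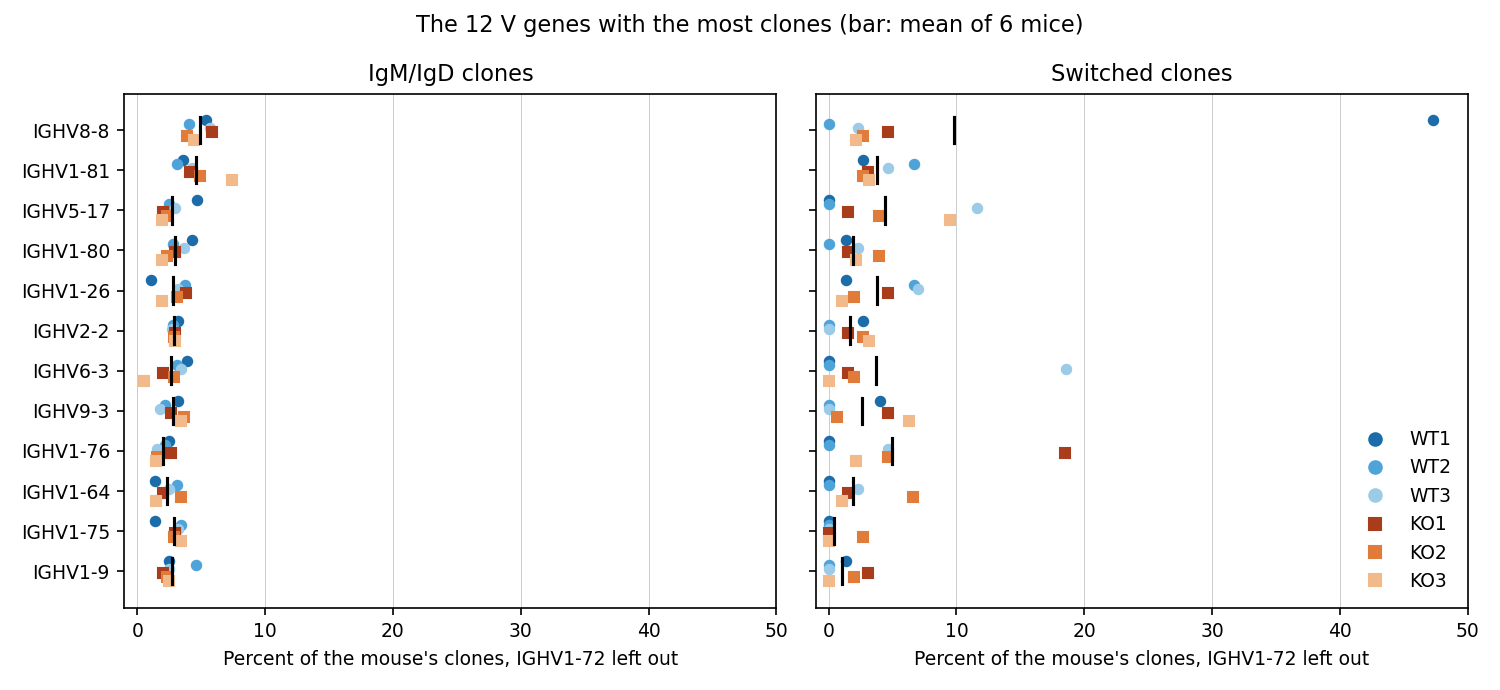
Percent of each mouse's clones (x axis) that used each of the 12 member V genes with the most clones (y axis), for IgM/IgD clones (left) and switched clones (right). Circles are WT mice, squares KO mice, and bars the mean of 6 mice. On the left all points lie below 8%, and on the right IGHV8-8 of WT1 stands at 47.3%.

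How far one or a few V genes led was measured as the chance that 2 clones of a mouse drawn at random use the same V gene (the unbiased Simpson index). For IgM/IgD clones it was 1.92% to 2.15% in the 6 mice. Among switched clones it was 23.6% in WT1, 1.90% in WT2, 5.54% in WT3, 4.90% in KO1, 3.77% in KO2 and 3.05% in KO3. It was higher in 5 of 6 mice, by 5.07 percentage points on average (exact sign-flip permutation test, two-sided, p = 0.0625). Without WT1 the difference was 1.79 points, and with CDR3s linked into lineages 0.467 points (exact p = 0.719). The members of a lineage that had mutated within CDR3 count as separate clones, which is the step that the linking removes.

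The IGHV8-8 cells of WT1 were followed further, a choice made after their number was seen. They were 62 of 107 switched cells, 57.9% (exact binomial 95% interval 48.0 to 67.4%, counting error only). The other mice had 0 of 15, 1 of 49, 3 of 75, 4 of 207 and 2 of 117 switched cells. In WT1, 56 of the 62 were IGHG2C and 6 were IGHG2B, and these 56 made up nearly all of the 58 IGHG2C member cells of that mouse. Lineage A had 23 cells and 4 different CDR3s, B 15 cells and 13 CDR3s, C 8 and 5, D 6 and 3, and E 6 and 6. The remaining pair of lineages, F and G, used IGHJ4 and had 2 cells each. All but G were found in both lanes. Linking reduced the 35 IGHV8-8 clones of WT1 to 7, which was 21.2% of its 33 linked switched clones, while the linked share was 0 to 6.25% in the other mice.

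Light chains were not used to define lineages, and they followed them. IGKV10-94 was the kappa V gene in 23 of 23 cells of lineage A with a light chain and in 6 of 6 cells each of D and E. IGKV14-130 was found in 12 of 13 cells of B and 8 of 8 of C. Together these 2 genes accounted for 57 of the 60 switched IGHV8-8 cells of WT1 with a light chain, 37 with IGKV10-94 and 20 with IGKV14-130. Neither was found in the 43 other switched cells of WT1 with a light chain, nor in the 10 switched IGHV8-8 cells of the other mice. Among 95 IgM/IgD IGHV8-8 cells 3 used IGKV10-94 and 0 used IGKV14-130, and over all 1936 IgM/IgD cells with a light chain the counts were 25 and 1. Most IGHV8-8 lineages of WT1 thus carried one or the other of these 2 kappa V genes, with different heavy chain junctions.

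**Figure D3:**
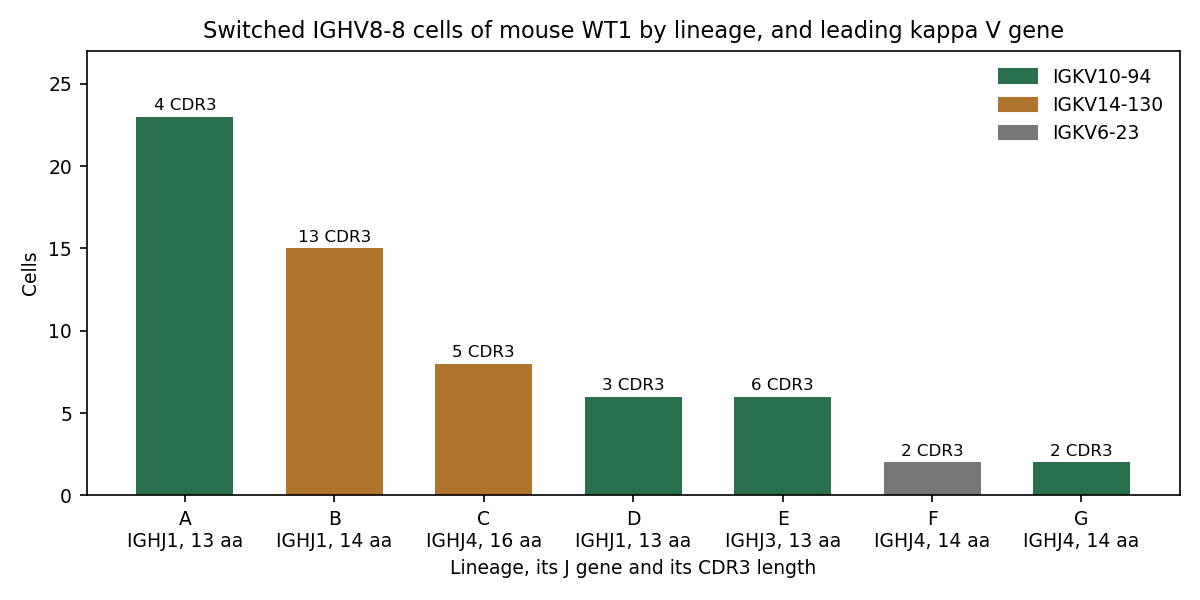
Number of switched IGHV8-8 cells of WT1 (y axis) in each of 7 lineages (x axis, with J gene and CDR3 length), coloured by the commonest kappa V gene, with the number of different CDR3s above each bar. Lineages A, D, E and G carry IGKV10-94 and lineages B and C IGKV14-130.

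The V segments of these cells were heavily mutated. Median counts were 16, 15, 9.5, 10.5 and 7.5 differences from the germline segment in lineages A to E. Of the 97 IgM/IgD clones with IGHV8-8, 96 matched germline at every base. Positions here count from the first base of framework 1. G98C, in CDR1, was found in 34 of the 37 IGKV10-94 cells, which belonged to 4 lineages (A, D, E and G), and in 0 of the 20 IGKV14-130 cells. A229G, in framework 3, was found in 17 of 20 IGKV14-130 cells and 8 of 37 IGKV10-94 cells. C186T, also in framework 3, was found in 14 of 20 and 3 of 37. Among 97 IgM/IgD IGHV8-8 cells none had any of these 3. Each of the 3 was found in 1 of the 10 switched IGHV8-8 cells of the other mice. Of the WT1 cells with IGKV6-23, 1 had C186T and none had G98C or A229G. A further 3 WT1 cells had another light chain V gene or none, and all 3 had A229G and C186T but not G98C. The germline CDR1 and the commonest CDR1 of 3 lineages are shown, with capitals where it differs from germline. The CDR1 shown was found in 20 of 23 cells of A, 7 of 15 of B and 3 of 6 of E. Of the lineages not shown, the commonest CDR1 of C was the germline one, in 5 of 8 cells. That of D was the same as in A, in 3 of 6 cells.
Germline CDR1: gggttttcactgagcacttttggtatg
Lineage A CDR1: gggttttcactgagcacttttgCtatg
Lineage B CDR1: ggAttttcactgagcacttttggtatg
Lineage E CDR1: gggttttcactgagcacttttgCtatg

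Lineages A and D, both IGHJ1 and 13 residues long, had CDR3s that differed at 8 of 39 bases (79.5% identity), just under the level used for linking, and shared 6 substitutions. A and E differed at 13 of 39 bases and shared 9 substitutions, and B shared its length with neither. A substitution counted for a lineage if any of its cells had it, which gave 50 in A, 20 in D and 31 in E. Within lineage B, which had the most CDR3s, 12 of the 13 sequences were seen in 1 cell each and differed from the commonest by 1 to 3 bases. The commonest CDR3 of B is also the one found in KO2, and a cell of KO3 had a CDR3 97.4% identical to lineage A. Those were the only 2 cells whose CDR3 matched, at 85% identity, any of the 35 lineages with at least 4 cells in another mouse.

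The gene expression libraries gave a readout of V genes that did not pass through contig assembly. In 1294 member cells with at least 2 UMIs of their leading Ighv gene, that gene was the contig's V gene in 1275 (98.5%). Cells with a single hashtag, no heavy chain contig and at least 2 UMIs of their leading Ighv gene were then taken if Ighg counts exceeded Ighm and Ighd together. Ighv8-8 led in 8 of 37 such cells of WT1 (21.6%, exact binomial 95% interval 9.83 to 38.2%), and in 0 of 5, 13, 22, 41 and 36 such cells in WT2, WT3, KO1, KO2 and KO3. In the other cells without a contig its share was 4.23% in WT1 and 1.54% to 4.84% in the other mice. Upper bounds of these counts of 0 were 52.2% in WT2, 24.7% in WT3, 15.4% in KO1, 8.60% in KO2 and 9.74% in KO3. The intervals of WT2, WT3 and KO1 overlap that of WT1, and those of KO2 and KO3 lie below it. KO3 does so narrowly, at 9.74% against 9.83%. They cover counting error only and treat cells as independent, though cells of a lineage are related, so they are no test between mice.

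In the other mice, lineages of switched cells used other V genes. KO2 held a pair with IGHV9-1, of 17 cells (all IGHG1) and 16 cells (11 IGHG3, 3 IGHG1 and 2 IGHM). Every one of the 32 switched IGHV9-1 cells of KO2 with a light chain used IGKV14-111, against 5 of 170 other switched cells of that mouse and 3 of 12 IgM/IgD IGHV9-1 cells. IGKV14-111 was not limited to these cells: in the other mice it was found in 38 of 353 switched cells with a light chain, 24 of them among the 49 of WT3. All 21 switched IGHV9-1 clones were in KO2. KO1 held an IGHV1-76 lineage of 19 cells (12 IGHG2C, 3 IGHG2B, 1 IGHG1 and 3 IGHM). The IGHV1-19 lineage of KO2 had 11 cells with a median of 2 mismatches, and the IGHV1-85 lineage 9 cells with 1 CDR3 and a median of 4. The IGHV1-62-2 lineage of KO3 had 9 cells, a median of 8 mismatches and IGKV1-117 in 9 of 9.

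IgM/IgD clones were hardly expanded. The largest had 3 cells each, one with IGHV5-2 in KO2 and one with IGHV11-2 in WT2. IGHV11-2 is known from the B-1 cell receptors that bind phosphatidylcholine, usually together with the kappa gene IGKV14-126. Its 7 clones were all IgM/IgD, and 6 of 7 used IGHJ1. Of its 9 cells, 5 carried IGKV14-126, against 6 of 2496 other member cells with a light chain. Those 5 cells came from 3 mice, had no V region mismatch and had CDR3s of 13 residues that resemble one another.
WT2, 3 cells: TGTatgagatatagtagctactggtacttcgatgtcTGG
WT3, 1 cell: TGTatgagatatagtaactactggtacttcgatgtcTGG
KO1, 1 cell: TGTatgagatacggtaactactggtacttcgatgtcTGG

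No J gene share differed between the classes beyond the spread between mice. In IgM/IgD clones IGHJ2 made up 28.8 ± 4.87%, IGHJ4 27.9 ± 2.99%, IGHJ3 25 ± 3.08% and IGHJ1 18.3 ± 2.70% (SD, n = 6). In switched clones the values were 30.0 ± 9.19%, 25.1 ± 11.9%, 25.8 ± 10.1% and 19.2 ± 13.0%. Each of the 4 differences was smaller than that spread (exact sign-flip permutation test, adjusted p = 0.969 for each). The J pairing of a V gene in switched clones followed its lineages. IGHV8-8 used IGHJ1 in 13.4% of 97 IgM/IgD clones and 51.1% of 45 switched clones, and IGHV1-76 used IGHJ3 in 25.6% of 39 and 69.6% of 23. IGHV2-2 used IGHJ4 in 43.9% of 57 IgM/IgD clones and IGHJ2 in 70.0% of 10 switched ones. The IGHV2 family as a whole also leaned to IGHJ4, in 43.6% of 156 IgM/IgD clones against 28.2% over all members.

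CDR3 length did not differ detectably between the classes. Lengths count the residues from the conserved cysteine to the tryptophan. The mean was 14.1 ± 0.137 residues in IgM/IgD clones and 14.1 ± 0.571 in switched clones (SD, n = 6), and the median over clones was 14 in both. In IgM/IgD clones the mean was 14.1 in WT1, 13.9 in WT2, 14.2 in WT3, 14.1 in KO1, 14.3 in KO2 and 14.1 in KO3. In switched clones it was 14.0 in WT1, 13.3 in WT2, 14.0 in WT3, 14.6 in KO1, 14.0 in KO2 and 14.9 in KO3, higher in 2 mice and lower in 4 (exact sign-flip permutation test, two-sided, p = 0.969). Clones of at most 9 residues were 4.66% of IgM/IgD and 3.61% of switched clones, and those of at least 20 residues 1.67% and 2.03%. Length differed by J gene in IgM/IgD clones, where means over mice were 15.2 ± 0.307 residues with IGHJ1, 14.9 ± 0.246 with IGHJ4, 13.4 ± 0.207 with IGHJ3 and 13.3 ± 0.223 with IGHJ2. Among families with at least 10 IgM/IgD clones, IGHV4 had the longest mean CDR3 (15.2 residues in 13 clones) and IGHV6 the shortest (13.0 in 88).

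**Figure D4:**
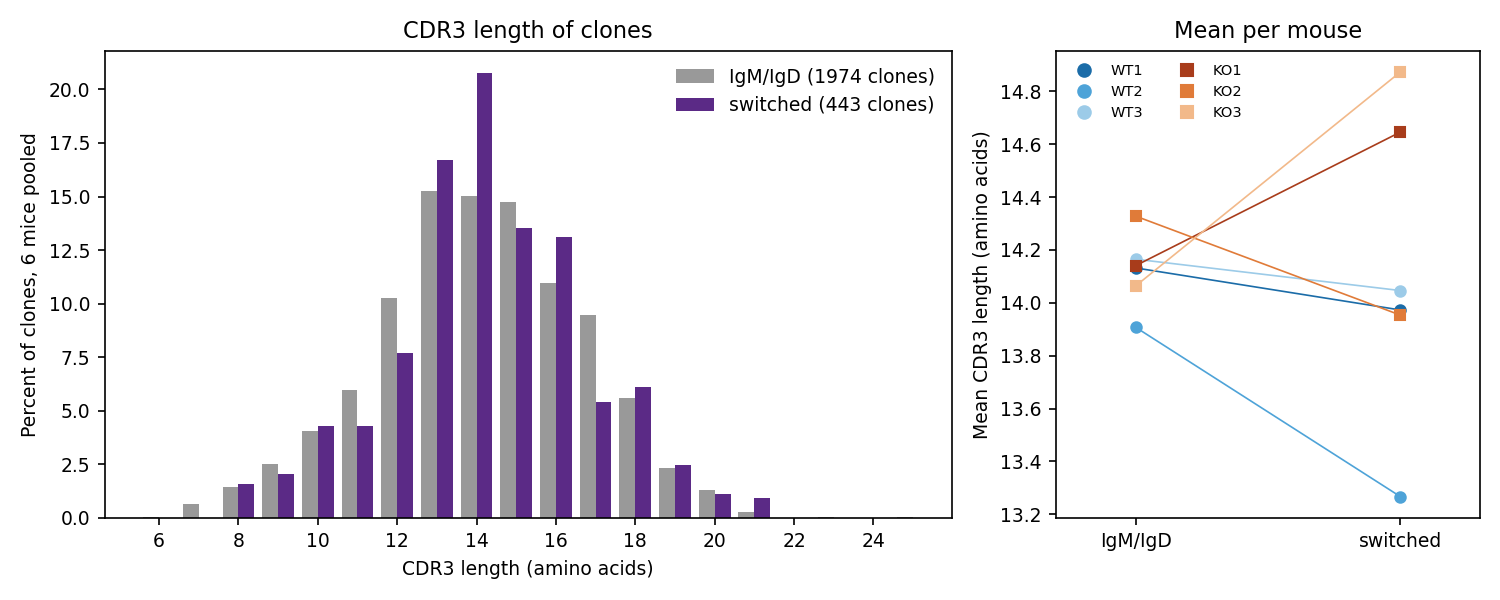
Left, percent of clones (y axis) by CDR3 length in amino acids (x axis) for IgM/IgD and switched clones pooled over 6 mice. Right, mean CDR3 length per mouse and class, with a line for each mouse and an axis that does not start at 0. The distributions overlap, and the means rose in KO1 and KO3 and fell in the other 4 mice.

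Mutation of the V region was not used to choose the members, and it separated the classes in every mouse. Differences from the germline segment, as percent of the bases of framework 1 to framework 3, averaged 2.97% in the switched clones of WT1, 2.11% in WT2, 2.09% in WT3, 1.59% in KO1, 2.40% in KO2 and 1.81% in KO3. IgM/IgD clones had 0.0163% in WT1, 0.00543% in WT2, 0.0212% in WT3, 0.0475% in KO1, 0.117% in KO2 and 0.0469% in KO3. The classes did not overlap, and the mean difference was 2.12 percentage points (higher in 6 of 6 mice, exact sign-flip permutation test, p = 0.03125, the smallest it can give). Of the switched clones 36 of 442 (8.14%) matched germline throughout, against 1900 of 1969 IgM/IgD clones (96.5%). In switched clones CDR1 and CDR2 differed at 3.58 ± 0.649% of their bases and the frameworks at 1.93 ± 0.544% (SD, n = 6), with CDR above framework in each mouse. In WT1 these stood at 3.17% and 2.94%, the closest pair.

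**Figure D5:**
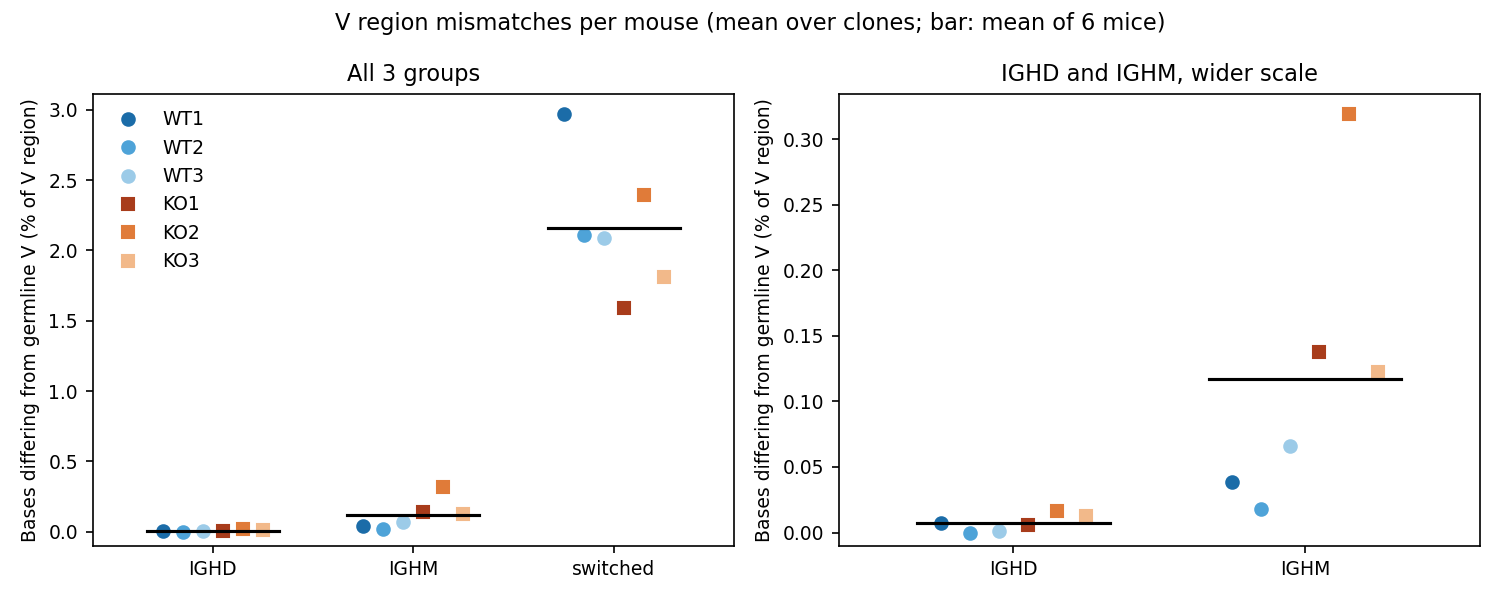
Mean percent of V region bases that differ from the germline segment (y axis) per mouse, for clones of IGHD, IGHM and switched cells (left) and for IGHD and IGHM on a wider scale (right). Circles are WT mice, squares KO mice, and bars the mean of 6 mice. Switched clones lie between 1.59% and 2.97%, and the 3 KO mice lie above the 3 WT mice for IGHM.

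All of the 12 member V genes with the most clones were mutated in switched clones, from a mean of 1.03% for IGHV9-3 (13 clones) to 3.57% for IGHV8-8 (45 clones). IGHV9-1 had 3.94% in its 21 switched clones of KO2. By isotype, IGHG2C clones averaged 3.19% over 58 clones, of which 31 came from WT1 (4.03%). IGHG3 averaged 2.26%, IGHG1 2.06% and IGHG2B 2.01%. The called V gene was rarely in doubt. Another annotated segment was as near in 2.28% of cells in each class, all from the pair IGHV1-62-2 and IGHV1-71, whose clones may be exchanged. It was nearer in 1 switched cell, and no member was as near to IGHV1-72 as to its own V gene.

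Between genotypes, no member V gene was called. In IgM/IgD clones 0 of 56 members passed edgeR's quasi-likelihood test (percent called 0% over 57 genes), with 2 at an unadjusted p under 0.05, and DESeq2 called 0 with 1 unadjusted. In switched clones 0 of 16 passed (0% of 17 genes), with 0 unadjusted by either tool. The genotype difference of the switching contrast was called for 0 of 61 (0% of 62), with 1 unadjusted, and 0 of either kind in DESeq2.

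The genes named for each test are the 2 highest and 2 lowest in log2 fold change among the 6 with the smallest p. In IgM/IgD clones IGHV9-1 had 2, 0 and 0 clones in WT1 to WT3 and 4, 4 and 3 in KO1 to KO3 (log2 fold change of KO over WT 2.41 ± 0.92 SE). IGHV1-54 had 2, 1 and 4 against 5, 4 and 6 (1.25 ± 0.64). IGHV2-5 went the other way with 2, 3 and 10 against 0, 2 and 1 (-2.0 ± 0.84), as did IGHV6-3 with 11, 10 and 15 against 7, 11 and 1 (-0.74 ± 0.38). Each had an adjusted p of 0.853 in edgeR's test. In switched clones these were IGHV9-1 and IGHV1-76 (2.19 ± 1.67) at the high end and IGHV8-8 (-2.50 ± 1.49) and IGHV6-3 (-2.31 ± 1.67) at the low end, each with an adjusted p of 0.651 in edgeR's test. IGHV9-1 had 0 of 132 switched clones in WT and 21 of 311 in KO mice, a pooled ratio of at least 2.97 against a floor of 3 clones. That ratio pools the mice of a genotype and counts CDR3 variants of a lineage as separate clones. With CDR3s linked, the IGHV9-1 clones were 4, all in KO2. A single mouse held most switched clones of IGHV9-1 and IGHV8-8, 21 of 21 in KO2 and 35 of 45 in WT1. Without WT1 the IGHV8-8 value was 0.84.

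In the test of whether the switching contrast differed by genotype, IGHV1-85 and IGHV1-42 were the highest and IGHV4-1 and IGHV8-8 the lowest of the 6 genes with the smallest p (edgeR quasi-likelihood test, adjusted p = 0.783 for each). The log2 difference of IGHV8-8 was -1.67 ± 1.18 (SE). The other 3 had switched clones in one genotype only, so no fold is given: IGHV1-85 had 8 and IGHV1-42 5, all in KO mice, and IGHV4-1 had 3, all in WT mice. WT mice had 132 switched clones in all and KO mice 311. CDR3 variants of a lineage count separately here. In KO3 the 4 IGHV1-42 clones were CDR3s of a single lineage of 4 cells. In KO1 the 3 IGHV1-85 clones were CDR3s of a single lineage of 5 cells. One IGHV1-85 sequence was counted in both KO2 and KO3. Without WT3 this test called 3 genes: IGHV8-8 (-2.99, adjusted p = 0.00797), IGHV1-76 and IGHV5-17. WT1 and WT2 had 0 switched clones of IGHV1-76 and IGHV5-17, so no fold is given for these. Without WT1 the IGHV8-8 value turned to 1.00.

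Scalar measures of the members by genotype were compared over the 20 assignments of 6 mice, where the smallest p is 0.1. Switched CDR3s averaged 13.8 ± 0.431 residues in WT and 14.5 ± 0.479 in KO mice (SD, n = 3 each, exact permutation test, p = 0.3), and IgM/IgD CDR3s 14.1 ± 0.140 and 14.2 ± 0.136 (exact p = 0.5). Switched IGHJ2 shares were 14.9%, 26.7% and 30.2% in WT1 to WT3 and 32.3%, 43.0% and 32.6% in KO1 to KO3, groups that did not overlap (exact p = 0.1, adjusted over 4 J genes 0.4). The difference was 12.1 percentage points, 5.94 with linked CDR3s, 0.828 in lane 1 alone and 22.0 in lane 2 alone. It was 7.55 points without WT1 and 7.41 without IGHV8-8, an alternative chosen after seeing the data. Within mouse, IGHJ2 fell from IgM/IgD to switched clones in all 3 WT mice and rose in all 3 KO mice. The change was small in WT3 (31.0% to 30.2%) and in KO3 (31.5% to 32.6%). Switched V region mismatches were 2.39 ± 0.503% in WT and 1.93 ± 0.416% in KO mice (exact p = 0.4). The lambda light chain share was 5.66 ± 1.76% in IgM/IgD and 5.15 ± 2.64% in switched clones (n = 6, exact p = 0.844), with no difference detected between genotypes in either class (exact p = 0.3 for each).

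IgM/IgD mismatches also did not overlap between genotypes, at 0.0143 ± 0.00806% in WT and 0.0704 ± 0.0401% in KO mice (SD, n = 3 each, exact permutation test, p = 0.1). The difference of 0.0561 percentage points was 0.0329 without KO2. The clones behind it carried IGHM: 88.8% of IGHM clones matched germline in KO1, 81.9% in KO2 and 88.9% in KO3, against 96.3% in WT1, 99.0% in WT2 and 95.6% in WT3. In IGHD clones the share was 97.8% to 100% in all mice. Germinal centre markers moved with it, since their sum in IGHM cells was 306, 442 and 423 CPM in KO1 to KO3 and 204, 90.3 and 120 CPM in WT1 to WT3. Among them Mef2b, a transcription factor of germinal centre B cells, was at 54.7, 50.4 and 104.7 CPM in the IGHM cells of KO1 to KO3 and at 47.7, 23.4 and 25 CPM in those of WT1 to WT3. Over all mice, the list summed to 971 CPM in the 70 IgM/IgD cells with a mismatch and to 110.0 CPM in the 1905 without. Follicular markers moved the other way, at 681, 793 and 713 CPM in the IGHM cells of KO1 to KO3 and at 1249, 1164 and 1168 CPM in those of WT1 to WT3. Antibody-secreting markers overlapped, at 1214, 872 and 818 CPM in KO1 to KO3 and 481, 2476 and 318 CPM in WT1 to WT3. What part the mix of cell states among cells with an IGHM contig had in the genotype values was not tested.

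Along the locus, member V genes lay from 0.149 Mb (IGHV5-2) to 2.57 Mb (IGHV1-85) from IGHJ1 on chromosome 12 of GRCm38. The mean distance of the V genes used was 1.38 ± 0.0377 Mb in IgM/IgD clones and 1.45 ± 0.190 Mb in switched clones (SD, n = 6). Mice ranged from 1.33 to 1.43 Mb in the first class and from 1.20 to 1.74 Mb in the second. Genes within 1 Mb of IGHJ1 supplied 33.2 ± 2.62% of IgM/IgD clones and 28.7 ± 10.0% of switched clones, and those beyond 2 Mb 28.6 ± 1.42% and 26.8 ± 13.6%. As for the families, the switched class differed in the spread between mice more than in the mean. Its values rest on 15 to 151 clones per mouse, against 203 to 442 for IgM/IgD, and count CDR3 variants of a lineage as separate clones. What part these counts had in the wider spread was not tested.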

How the data were processed

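Gene expression, B cell receptor and hashtag libraries of one pool of 6 mice were run on 2 lanes. The authors deposited raw UMI counts per gene and per contig, from Cell Ranger and mm10 per the submitters' processing notes, version 7.0.1 per the file headers of the expression matrices alone. Hashtag calls are the authors' own, as text. How they were made is not given in the sources used. All deposited contig rows were productive and full length.

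Of 3629 barcodes with a heavy chain, 687 with several hashtags, 29 with none and 157 without a hashtag entry were left out. The mouse, from the hashtag, was the replicate, and lanes were summed. Clone counts per V gene were fitted with edgeR 4.0.16 (quasi-likelihood test, R 4.3.3), with library size without IGHV1-72, no further scaling, at least 10 clones and Benjamini-Hochberg adjustment. DESeq2 1.42.0 was an alternative. Other values were tested with exact sign-flip or permutation tests over mice. V regions were placed without gaps on segments of GENCODE vM21 (GRCm38), and 6 cells above 20% mismatch were not used for mismatches. For edgeR, SE was obtained by dividing the size of the log2 fold change by the root of its F statistic. Of the steps, the edgeR fit alone was tested on simulated data. Its clone counts were drawn independently, unlike the related CDR3s of a lineage.

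Named V genes were the 12 with the most clones, those called or, where none was, the 2 highest and 2 lowest log2 fold changes among the 6 smallest p of each test, and those of the 5 largest clones per class, with all J genes and families of at least 10 clones. Only 4 IgM/IgD clones had over 1 cell, so the fifth was a single IGHV1-12 cell taken by sort order. Genes named for their lineages or light chains were chosen after their values were seen. Of the marker lists, 2 genes are not reported here and were left out of the sums. Members and lists were chosen with earlier results of these data known. Alternatives covered the clone definition, UMIs, lanes, isotypes, mice, filters and tools, and 2 were chosen after seeing the data. Labels do not say whether mice were littermates or processed together, so p-values cover the spread between these mice.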

Additional observations from a re-analysis of the deposited data

Results flagged for a closer look

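Among 82 groups of 6 mice examined, 23 had a mouse set apart from the others by more than Dixon's critical value for 6 samples, where chance gives about 1 group in 20 if values are independent and normal. Many of these groups are small counts with several mice at 0, and gene, family and concentration values overlap, so the number of groups says little by itself. Among switched clones WT1 stood apart by IGHV8-8 and so by the IGHV8 family (47.3% each), by V gene concentration (23.6%) and by a lambda share of 0%. WT3 stood apart by IGHV6-3 (18.6%) and its family IGHV6 (20.9%), and KO1 by IGHV1-76 (18.5%). KO2 did so by IGHV9-1 (13.9%), IGHV1-64 (6.62%), IGHV1-75 (2.65%), IGHV1-54 (1.32%) and the IGHV13 family (1.32%), and KO3 by IGHV1-42 (4.21%). WT2 was apart for the families IGHV4, IGHV10 and IGHV14 and for the genes IGHV2-5 and IGHV4-1, each at 6.67%, which is 1 clone of its 15.

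Among IgM/IgD clones KO3 stood apart by IGHV14 (7.39%) and IGHV13 (1.48%), WT1 by a high IGHV5-17 (4.64%) and a low IGHV1-75 (1.43%), and WT2 by IGHV1-9 (4.63%). The genotypes moved in opposite directions for IGHJ2, which was higher in switched than IgM/IgD clones in all 3 KO mice, by 7.85 percentage points on average, and lower in all 3 WT mice, by -5.50 points. The exact permutation test of that difference gave p = 0.1, the smallest possible, and 0.4 adjusted over 4 J genes. IGHJ2 changed little in WT3 (31.0% to 30.2%) and in KO3 (31.5% to 32.6%).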

How the results depend on the processing

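The counts of called V genes for KO against WT in either class, of families and of J genes were 0 under every alternative run. For families and J genes these counts show little. A single one at the smallest p of the exact test cannot pass the adjustment, and with one mouse left out none can. Between classes, 1 V gene (IGHV1-75) was called in lane 2 alone, and leaving out one mouse gave 0 to 1. The genotype difference of that contrast gave 0 to 3 when one mouse was left out. The class comparison had the mouse as a block, and with no replicate block it gave 0 called V genes, with 15 at an unadjusted p under 0.05. The difference in V region mismatches stayed positive throughout, 1.95 to 2.23 points when one mouse was left out, where the exact test over 5 mice cannot go below p = 0.0625. The CDR3 length difference, near 0, was negative when counted per cell (-0.142 residues), in lane 2 alone (-0.271) and with IGHD alone (-0.0277), and ranged from -0.158 to 0.133 when one mouse was left out, negative without KO1 (-0.0967) or KO3. The lambda difference was positive with linked CDR3s (0.431 points), at least 3 UMIs (1.40) and lane 2 alone (0.179), and ranged from -1.17 to 0.717 when one mouse was left out. V gene concentration passed p = 0.03125 with barcodes of exactly 1 heavy chain (5.08 points) and with IGHM alone (4.99); without one mouse it was 1.79 to 6.09. IGHV6-3 in IgM/IgD clones turned to a log2 fold change of 0.10 with IGHD alone, and without one mouse IGHV8-8 ranged from -3.06 to 0.84 (KO against WT, switched) and from -2.99 to 1.00 (genotype difference), positive without WT1. The causes were not tested. Few switched clones, 15 in WT2, and 1 UMI for 35.5% of heavy chains limit what these data can show.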
